A study of Mus musculus with 5 samples.

Results

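Inhibitors of cyclin-dependent kinases and core genes of the p53 pathway were followed across the cell types of mouse bone marrow during the first days of a B-cell leukaemia. The set holds 8 of the 28692 genes measured and was listed by gene name, with no threshold on a measured value: the INK4 inhibitors Cdkn2a, Cdkn2c and Cdkn2d, the CIP/KIP inhibitors Cdkn1a and Cdkn1b, the tumour suppressor Trp53, its ubiquitin ligase Mdm2 and its target Ccng1. Each of the 5 samples came from 1 C57BL/6J mouse, 8 weeks old, that had received 1000 BCR-ABL1 pre-B acute lymphoblastic leukaemia (ALL) cells through the tail vein without irradiation, so every group, day 0 included, had received the transplant. The study's methods for flow cytometry speak of the leukaemia cells as mCherry-positive, the sources used here give no other genotype for them, and in these libraries they were not told apart from host cells. By flow cytometry the study put the share of leukaemia cells in the marrow highest at day 12 and very low on the earlier days. One mouse was killed straight after the transplant (day 0) and 1 each at days 3, 6, 9 and 12. Flushed marrow was pooled with collagenase-digested bone, red cells were lysed, and single cells were sequenced by the 10x Genomics 3' method. Because each day is 1 mouse, a day and a mouse (and its library) cannot be told apart, and no test between days was possible.

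Cyclin-dependent kinases drive cells through the division cycle, and their inhibitors hold them back. INK4 proteins bind CDK4 and CDK6 and block their pairing with D-type cyclins, which keeps the retinoblastoma protein active, whereas CIP/KIP proteins bind cyclin-CDK complexes more broadly. p53, encoded by Trp53, is stabilised by DNA damage and oncogene stress and switches on Cdkn1a, Mdm2 and Ccng1; Mdm2 in turn marks p53 for destruction, and the ARF protein made from Cdkn2a blocks Mdm2. In B-cell precursors, Cdkn2a is known for restraining BCR-ABL1-driven growth.

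Cdkn2a (chromosome 4, 89274471 to 89294653, minus strand, GRCm38) encodes 2 unrelated proteins from separate first exons. The transcript Cdkn2a-201, which makes p16Ink4a, starts at 89282192 with a first exon of 207 bases, and Cdkn2a-202, which makes ARF, starts at 89294653 with a first exon of 320 bases. The transcripts share 575 exonic bases at their 3' side, 67.5% of the first and 64.2% of the second, and a 3' assay reads that shared part. The Cdkn2a values given here therefore do not separate p16Ink4a from ARF. The starts themselves are shown because they carry that difference. Each window holds 250 bases before and 50 after the start (RefSeq, GRCm38.p6, minus strand, 5′ to 3′), with every CpG in capitals.
Cdkn2a p16Ink4a start, chr4:89282143-89282442: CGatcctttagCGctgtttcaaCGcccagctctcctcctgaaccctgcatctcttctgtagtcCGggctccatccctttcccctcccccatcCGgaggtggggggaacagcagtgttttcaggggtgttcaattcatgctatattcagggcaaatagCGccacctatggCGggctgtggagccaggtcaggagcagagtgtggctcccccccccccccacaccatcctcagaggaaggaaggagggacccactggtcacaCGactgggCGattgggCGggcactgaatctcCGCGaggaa
Cdkn2a ARF start, chr4:89294570-89294869: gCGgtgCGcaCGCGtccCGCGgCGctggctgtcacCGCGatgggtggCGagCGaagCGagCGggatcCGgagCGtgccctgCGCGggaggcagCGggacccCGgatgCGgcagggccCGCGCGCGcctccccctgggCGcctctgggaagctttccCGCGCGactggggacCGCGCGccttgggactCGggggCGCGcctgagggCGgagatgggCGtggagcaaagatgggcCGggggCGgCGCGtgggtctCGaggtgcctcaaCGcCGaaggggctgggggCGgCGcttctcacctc
The ARF window held 45 CpGs and the p16Ink4a window 12, against a median of 7 over all 32851 promoter windows of the table. The ARF window was also the only one of the 11 windows of these genes with an E2F spelling (TTTCCCGC), out of TTTCCCGC, TTTGGCGC, TTTCGCGC and TTTGCCGC searched on both strands, which 2.26% of all windows held. The window at the upstream start of Cdkn1a (chromosome 17, plus strand) is shown next because Cdkn1a is the textbook p53 target. Its capitals mark 2 decamers, 12 bases apart, that match the p53 spelling RRRCWWGYYY exactly (R is A or G, W is A or T, Y is C or T).
Cdkn1a upstream start, chr17:29090729-29091028: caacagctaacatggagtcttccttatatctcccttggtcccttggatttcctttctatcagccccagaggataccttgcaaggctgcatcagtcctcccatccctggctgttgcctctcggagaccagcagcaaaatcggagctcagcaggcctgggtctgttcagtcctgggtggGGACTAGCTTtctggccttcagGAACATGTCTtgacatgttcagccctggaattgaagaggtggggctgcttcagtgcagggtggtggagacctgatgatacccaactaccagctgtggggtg
Such a pair, 0 to 13 bases apart, occurred in 24 of all windows (0.0731%) and in no other window of the set. A single decamer occurred in 8.36% of all windows and in 1 window each of Cdkn2d, Trp53, Mdm2 and Ccng1. In the Cdkn1a window the decamer directly after the second capital stretch, tgacatgttc, misses that spelling only at its first base and is unmarked. These matches describe letters in the reference, depend on the exact spelling and were not measured as bound sites.

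The libraries held 33425695 to 43554233 unique molecular identifiers (UMIs), each standing for 1 captured RNA molecule, and 32135 barcodes had at least 500 UMIs (5474 to 7604 a library, median 2874 to 3786 UMIs). Clustering without the 8 genes and their pathway lists placed 30419 of these barcodes in 15 classes, named "-like" after markers, and the other 1716, in a cluster led by mitochondrial genes and one led by haemoglobin and stromal genes, were set apart. Between 44 and 73 barcodes were shared by any pair of libraries, where 43.6 to 68.9 would be shared by random draws. A level is the UMIs of a gene per 10000 UMIs of a class, with a 95% interval that covers counting error only. Levels are compared for 1 gene between classes or days, never between genes. One group of cells stands apart before any result is read: a cluster of 130 cycling pro/pre-B-like cells, 126 of them from the day 3 library, with a median of 19146 UMIs and Myl10, Rnase12, Vpreb2 and Mt2 among its leading genes. Its day 3 cells carried Xist at 0.426 per 10000, against 14.3 in the other 90 cycling pro/pre-B-like cells of that library, and Ddx3y, Eif2s3y, Kdm5d and Uty were at 0 UMIs in both. Day 3 results on pro/pre-B-like cells are therefore given with and without this cluster.

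Most Cdkn2a UMIs came from that cluster at day 3. The barcodes held 7, 663, 9, 8 and 5 Cdkn2a UMIs from day 0 through days 3, 6 and 9 to day 12, the order used for every set of 5 values. Of the 663 at day 3, the cluster held 570 and other barcodes 93, and of the 173 barcodes with a Cdkn2a UMI it held 110 and the others were 63. Over all pro/pre-B-like cells its level was 0.00814, 1.63, 0.0215, 0.0111 and 0.0599 per 10000 in the same order, so the day 3 library stood apart from 4 libraries near 0. Within day 3 the level was 2.29 per 10000 in the cluster (570 UMIs, in 110 of 126 cells) and 0.357 in the other 90 cycling pro/pre-B-like cells (37 UMIs, in 11 cells), a ratio of 6.42 (4.60 to 9.21). Single cells of the cluster held 0 to 20 Cdkn2a UMIs, with a median of 4. The cluster's cells were also deeper (median 19347 against 7820 UMIs), and after thinning every cell to 1000 UMIs the share with a Cdkn2a UMI was 19.7% against 3.41%. In the same cells Tmem119 stood at 1.91 against 0.0867 per 10000. The 4 cells of the cluster from days 0 and 9 held no Cdkn2a UMI.

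Free RNA carried Cdkn2a at day 3 as well. Barcodes with at most 100 UMIs, which hold no whole cell, gave 60 Cdkn2a UMIs at day 3 (0.168 per 10000) and 1, 1, 0 and 1 at days 0, 6, 9 and 12. Every day 3 class outside the pro/pre-B-like cells lay below that level: 0.0397 per 10000 in early neutrophil-like cells (22 UMIs), 0.0202 in late neutrophil-like cells (10 UMIs), 0.0125 in cycling early neutrophil-like cells and 0.0087 in monocyte-like cells. The part of free RNA in those values was not tested. With the cluster left out, all pro/pre-B-like cells of day 3 had 0.306 per 10000 against 0.168 in free RNA, and cycling pro/pre-B-like cells gave a ratio to day 0 of 26.2 (4.42 to 1062), from 1 UMI at day 0. One small cluster of cycling pro/pre-B-like cells, 18 cells at day 3, reached 0.989 per 10000 (26 UMIs).

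**Figure D1:**
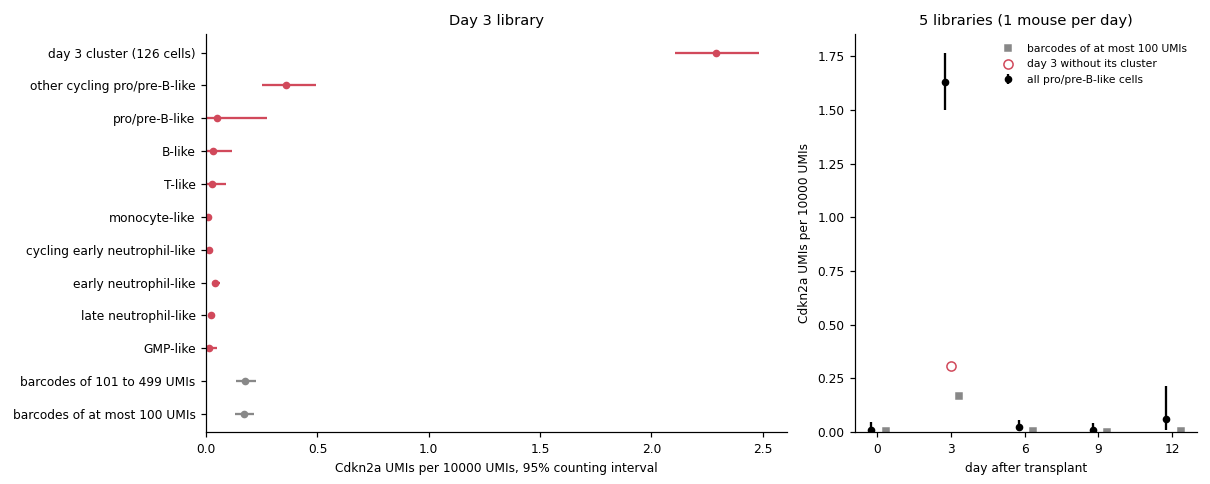
Left, Cdkn2a UMIs per 10000 UMIs in groups of barcodes of the day 3 library, with 95% counting intervals as bars (red, cells; grey, barcodes below the cell limit). Right, the level over all pro/pre-B-like cells (black) and in barcodes of at most 100 UMIs (grey) for each of the 5 mice, with the open circle for day 3 without its cluster at 0.306. The cluster lies at 2.29, and the classes outside the pro/pre-B-like cells lie below the grey points near 0.17.

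Cdkn2c, which encodes the INK4 inhibitor p18, was highest in dividing monocyte-like and pro/pre-B-like cells. In cycling monocyte-like cells its level was 1.29, 1.73, 1.72, 1.49 and 1.47 per 10000 from day 0 to day 12. The next class, cycling pro/pre-B-like cells, had 0.910, 0.629, 1.08, 0.966 and 0.646. No library of the second class reached the lowest value of the first. Plasmacytoid dendritic-like cells, a class not named as cycling, had 0.386 to 0.681. Their median of 0.567 stood beside 0.568 in cycling early neutrophil-like cells and above 0.403 in cycling GMP-like cells. Non-cycling monocyte-like cells had 0.130 to 0.241, and the early and late neutrophil-like cells 0.0381 to 0.0794, the lowest medians of all classes. Over 64 groups of a class and a day, the level of Cdkn2c followed H2afx (Spearman 0.91), Tcf19 (0.90) and cyclin A2, Ccna2 (0.90), and the summed level of Mki67, Top2a, Pcna, Mcm5, Birc5 and Ube2c (0.89). These groups share libraries and cell lineages, so the coefficients are a description.

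In B-lineage cells Cdkn2c was again higher where cells were dividing. UMIs summed per class and mouse and tested by edgeR with the mouse as a block showed Cdkn2c higher in cycling than in non-cycling pro/pre-B-like cells in 5 of 5 mice, with means of 0.846 ± 0.1999 and 0.236 ± 0.0962 per 10000 (SD, n = 5), a log2 difference of 2.32 ± 0.25 (SE, adjusted p = 2.16e-09). The 5 mice here come from 5 days, so they replicate the classes and not a day. The 4 clusters of cycling cells still differed: the one with the most proliferation UMIs had 1.45 to 1.74 per 10000 in 4 libraries, another 0.323 to 0.725 in 5, and these ranges did not overlap. The cluster particular to day 3 had 0.498, against 0.944 in the other cycling pro/pre-B-like cells of that day, a ratio of 0.527 (0.401 to 0.694). The 8 genes took no part in defining the clusters. In that comparison of the cluster with the other cycling cells of its library, Cdkn2a was higher and Cdkn2c, Cdkn2d and Mdm2 lower by at least 1.5-fold, 4 of the 7 genes with enough UMIs, and 29.6% of 5588 genes passed the same fold. For Cdkn2c, Cdkn2d and Mdm2 the level in the day 3 cluster lay within the range of the cycling cluster with Cdkn2c at 0.323 to 0.725. For Mdm2 that range was 0.108 to 0.344 over 5 libraries, and the day 3 cluster had 0.233.

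Cdkn2d, the INK4 inhibitor p19, had a broader range of high classes. Its level was 2.44, 2.15, 2.61, 2.39 and 2.65 per 10000 in cycling monocyte-like cells, and 2.05, 1.75, 2.09, 2.17 and 2.11 in late neutrophil-like cells, which do not divide. Cycling early neutrophil-like cells overlapped both, with 2.12 to 2.60. Early neutrophil-like cells had 1.17 to 1.35 and GMP-like cells (granulocyte-monocyte progenitors) 0.390 to 0.499, without overlap. The level was thus lower in GMP-like cells than in any neutrophil-like class. It did not rise steadily along these classes, because cycling early neutrophil-like cells lay above early neutrophil-like cells. In the most proliferative pro/pre-B-like cluster Cdkn2d reached 2.91 to 4.30 per 10000, above the highest value of any whole class (2.65). In the cluster particular to day 3 it was 0.606, against 1.64 in the other cycling cells of that day, a ratio of 0.370 (0.295 to 0.464). Those other cells include the most proliferative cluster. Another cycling pro/pre-B-like cluster, led by Igll1, Vpreb1 and Bfsp2, had 0.441 to 1.29 over 5 libraries, a range that holds 0.606. Against day 0, Cdkn2d in cycling pro/pre-B-like cells at day 3 stood at 0.462 (0.378 to 0.566) with the cluster and 0.829 (0.661 to 1.04) without it.

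**Figure D2:**
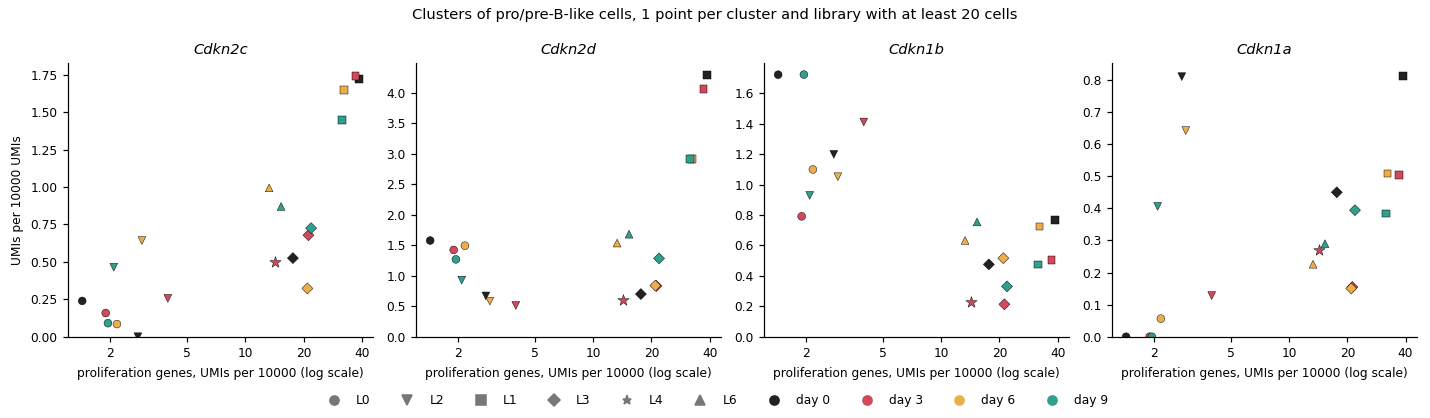
Level of 4 inhibitors (vertical, UMIs per 10000) against the summed level of 6 proliferation genes (horizontal, UMIs per 10000, log scale) in clusters of pro/pre-B-like cells, 1 point for each cluster and library with at least 20 cells. Symbols are clusters (L0 and L2 non-cycling, L1, L3, L4 and L6 cycling, L4 the cluster particular to day 3) and colours days, and the squares of L1 lie highest for Cdkn2c (1.45 to 1.74) and Cdkn2d (2.91 to 4.30) while Cdkn1b is highest in L0 and L2.

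Cdkn1b, which encodes p27, an inhibitor that accumulates in resting cells, was lower in dividing cells of the pro/pre-B-like lineage. Non-cycling pro/pre-B-like cells had 1.42, 1.03, 1.08, 1.37 and 1.81 per 10000 from day 0 to day 12, the highest class in each of the 5 libraries. B-like cells came next with 0.800, 0.724, 0.625, 0.612 and 0.787, and T-like cells overlapped them with 0.548 to 0.808. The lowest classes were GMP-like cells (0.110 to 0.162) and cycling GMP-like cells (0.116 to 0.267). Cycling pro/pre-B-like cells had less Cdkn1b than non-cycling ones in 5 of 5 mice (0.458 ± 0.163 against 1.34 ± 0.314 per 10000, SD, n = 5), a log2 difference of -1.20 ± 0.19 (SE, edgeR adjusted p = 3.61e-06). In 3 other lineages the median was not lower in dividing cells: the medians were 0.518 (0.498 to 0.574) in cycling and 0.449 (0.440 to 0.548) in non-cycling monocyte-like cells, 0.163 and 0.151 in cycling and non-cycling GMP-like cells, and 0.371 and 0.370 in cycling and non-cycling early neutrophil-like cells. Late neutrophil-like cells had 0.645 to 0.767, above early neutrophil-like cells at 0.348 to 0.385, again without overlap. The gene most like Cdkn1b over the 64 groups was the antiproliferative gene Btg1 (Spearman 0.89), and its coefficient with the proliferation sum was -0.47. Free RNA held Cdkn1b at 0.595 to 0.674 per 10000 and Cdkn2d at 1.98 to 2.33, above 53 and 58 of the 71 groups of a class and a day with at least 20 cells, and its part in those levels was not tested.

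At day 3, Cdkn1b was lower in cycling pro/pre-B-like cells whether or not the cluster particular to that day was counted. The ratio to day 0 was 0.422 (0.292 to 0.617) with it and 0.535 (0.332 to 0.853) without it. Over all genes tested, 32.0% passed 1.5-fold in either direction in that comparison with the cluster and 13.7% without it. With the cluster, 4 of the 8 genes passed: Cdkn2a was higher and Cdkn1a, Cdkn1b and Cdkn2d were lower. Without it, 2 of the 6 genes with enough UMIs passed, Cdkn1a at 0.544 (0.326 to 0.899) and Cdkn1b, while Cdkn2c was at 1.03 (0.751 to 1.43) and Trp53 at 0.785 (0.594 to 1.04).

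Cdkn1a, which encodes p21 and is the classical transcriptional target of p53, was highest in monocyte-like cells and in stem and multipotent progenitor-like cells. In the latter class this did not hold for every cluster. Cdkn1a was low in GMP-like and cycling GMP-like cells, with medians of 0.186 and 0.207 per 10000. Cycling monocyte-like cells had 2.32, 1.23, 1.24, 1.14 and 1.497 per 10000 from day 0 to day 12. Monocyte-like cells had 1.46, 0.979, 0.872, 0.818 and 1.13, and stem and multipotent progenitor-like cells 1.28, 1.20, 0.621, 0.517 and 0.945. The 3 classes overlapped and lay above the other classes in every library, and early neutrophil-like cells had the lowest median, with a range of 0.0266 to 0.0510. Clusters inside these classes differed too. The monocyte-like cluster led by Apoe, Cd83 and Nr4a2 had 3.02, 3.03, 2.51, 2.25 and 2.93 per 10000, and the one led by S100a4 and Ccr2 had 0.821, 0.397, 0.328, 0.413 and 0.748. Among stem and multipotent progenitor-like cells, the cluster led by Dntt, Ctla2a and Flt3 had 1.36 to 2.97 over 5 libraries (19 to 24 cells each), and the one led by Hlf, Meis1 and Angpt1 0.106 to 0.274 over 4. Neither pair of ranges overlapped. From day 0 to day 12 the Dntt, Ctla2a and Flt3 cluster held 23, 19, 19, 19 and 24 cells. The Hlf, Meis1 and Angpt1 cluster held 9, 42, 43, 70 and 16. The mix within the class thus differed between libraries, and its part in the class values was not tested. Free RNA held Cdkn1a at 0.220 to 0.377 per 10000, above the levels of the 3 neutrophil-like classes, B-like and T-like cells in every library, and its part in those low levels was not tested.

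The day 0 library had the most Cdkn1a. It was highest of the 5 in 5 of the 9 classes with at least 50 cells in all libraries, which 6.52% of 5350 genes reached or passed at day 0. In cycling monocyte-like cells the ratio to day 0 was 0.529 (0.439 to 0.636) at day 3, 0.536 (0.455 to 0.632) at day 6, 0.491 (0.414 to 0.582) at day 9 and 0.646 (0.541 to 0.772) at day 12. In cycling early neutrophil-like cells the level was 0.237 at day 0 and 0.107 to 0.137 afterwards. GMP-like cells went the other way at day 3, with 0.186 per 10000 at day 0 and 0.338 at day 3, a ratio of 1.81 (1.15 to 2.89). Their day 0 level lay below that of free RNA in the same library (0.377). Cycling GMP-like cells did not rise, with 0.407 at day 0 and 0.372 at day 3. Within monocytes, the S100a4 and Ccr2 cluster was highest at day 0 with 282 UMIs in 629 cells, whereas in the Apoe, Cd83 and Nr4a2 cluster the intervals of days 3 (2.70 to 3.38) and 12 (2.49 to 3.42) spanned the day 0 value of 3.02 and those of days 6 (2.25 to 2.80) and 9 (1.97 to 2.56) lay below it. Immediate-early genes, which respond within minutes to stress and handling, were also highest at day 0. The sum of Fos, Fosb, Jun, Junb, Egr1, Atf3, Ier2 and Dusp1, chosen after the Cdkn1a values were seen, was 77.9, 34.1, 32.8, 38.6 and 57.6 per 10000 in monocyte-like cells and 74.8, 26.6, 27.4, 23.8 and 46.1 in cycling monocyte-like cells. That sum was highest at day 0 in 13 of 14 classes. The study had already reported Fos, Fosb, Jun and Junb as lower in later libraries in several cell types. The count of classes was therefore partly set by the choice of genes and is no separate result. It was not compared with the same count over all genes. The level of Cdkn1a in free RNA was highest at day 0 too (0.377, 0.323, 0.310, 0.220 and 0.284). The part of the immediate-early genes or of free RNA in the Cdkn1a result was not tested.

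Trp53 was high in lymphoid precursors and early progenitors and low in neutrophils. Non-cycling pro/pre-B-like cells had 1.30, 1.17, 1.10, 1.25 and 1.27 per 10000 from day 0 to day 12, stem and multipotent progenitor-like cells 1.22, 1.35, 1.02, 1.18 and 1.18, and GMP-like cells 1.17, 1.28, 0.949, 1.07 and 0.939. These 3 classes overlapped. Late neutrophil-like cells had 0.0857, 0.0929, 0.104, 0.0944 and 0.0640, and early neutrophil-like cells 0.0487 to 0.137, both below every value of cycling early neutrophil-like cells (0.155 to 0.214). All 3 neutrophil classes lay below the level of Trp53 in free RNA (0.309 to 0.571). Across the 9 classes the day 3 library was highest in 6, which 2.92% of genes reached or passed, and the day 12 library lowest in 7, which 4.92% did. Free RNA held Trp53 at 0.496, 0.550, 0.571, 0.429 and 0.309 per 10000 from day 0 to day 12, also lowest at day 12. Its part in this order of libraries was not tested. The Trp53 differences within classes were small: 4 of 47 ratios to day 0 were lower past 1.5-fold, where 6.24% of ratios over all genes were. They lay in plasmacytoid dendritic-like cells at days 3 and 9 (0.635 and 0.659), in early neutrophil-like cells at day 12 (0.488, below the free level) and in T-like cells at day 12 (0.615). Over the 64 groups, Trp53 was most like Hsp90ab1 (0.92) and the ribosomal gene Rpl29 (0.92).

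Mdm2 and Ccng1 covered narrow ranges of class medians. The median over libraries ran from 0.188 to 0.509 per 10000 for Mdm2 and from 0.147 to 0.367 for Ccng1. For Mdm2 the extremes, NK-like (38 UMIs) and non-cycling pro/pre-B-like cells (88 UMIs), rest on few UMIs and overlapped other classes. Free RNA held Mdm2 at 0.522 to 0.754 per 10000, above 69 of the 71 groups of a class and a day, and its part in these levels was not tested. Mdm2 in non-cycling pro/pre-B-like cells went from 0.325 per 10000 at day 0 to 0.684 at day 6 (ratio 2.11, 1.14 to 4.07), the only increase of 43 ratios that passed the fold. Over all genes and classes, 10.4% of ratios were higher past that fold, a larger share than 1 of 43. Ccng1, which encodes cyclin G1, was lowest at day 0 in 6 of 9 classes, which 12.8% of genes reached or passed. In cycling early neutrophil-like cells it had 0.0827, 0.171, 0.152, 0.156 and 0.114 per 10000, so each later library lay above day 0. Each of these levels lay below that of Ccng1 in free RNA of the same library (0.165, 0.219, 0.241, 0.243 and 0.182). The ratio was 2.06 (1.42 to 3.03) at day 3 and 1.77 after dividing by the median ratio of all genes, which was above 1 in that class (log2 0.22). In B-like cells at day 3 Ccng1 was lower instead, from 0.340 to 0.173 (ratio 0.509, 0.239 to 0.989). Levels of Mdm2 and Ccng1 did not follow that of Trp53 closely over the 64 groups (Spearman -0.27 and 0.41).

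**Figure D3:**
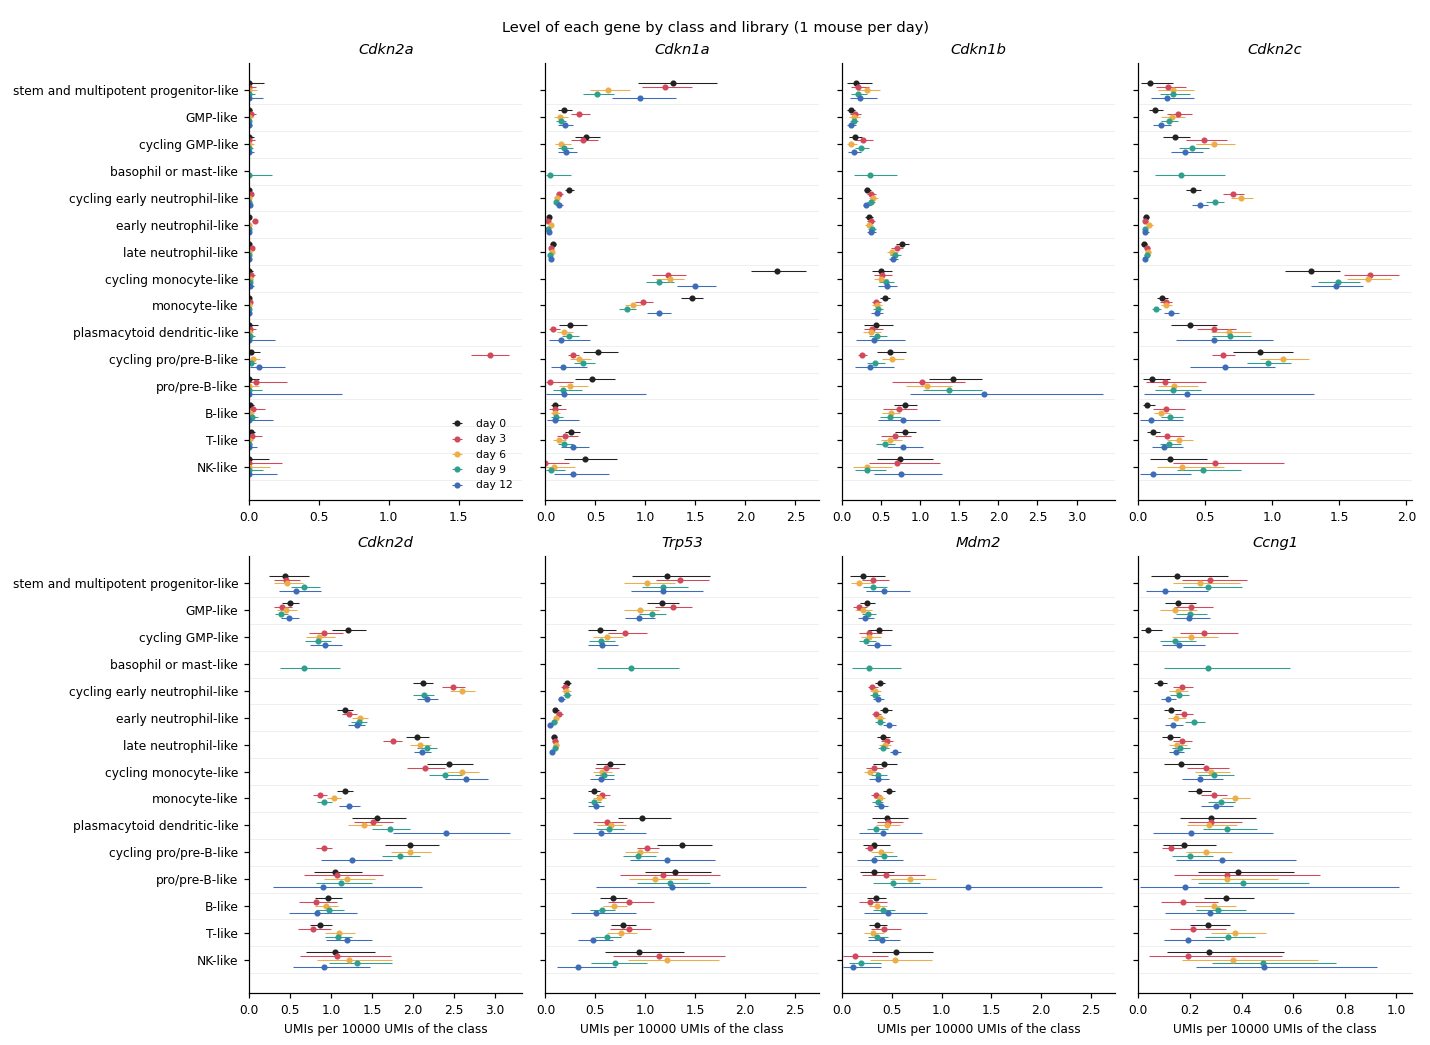
Level of each of the 8 genes (horizontal, UMIs per 10000 UMIs of the class, from 0) in each class (vertical) and library (colours, 1 mouse per day), for groups of at least 20 cells. Bars are 95% counting intervals. Cdkn1a and Cdkn2c peak in cycling monocyte-like cells (up to 2.32 and 1.73), Cdkn1b in non-cycling pro/pre-B-like cells (up to 1.81), and Trp53 is lowest in early and late neutrophil-like cells.

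Comparison of every later library with day 0 in all classes gave 276 ratios with at least 50 UMIs summed over both libraries and 50 cells in each, from the 384 possible, all sharing the day 0 mouse. Of these, 25 were at least 1.5-fold higher and 25 at least 1.5-fold lower, 18.1% together, and over all genes the share past that fold was 16.6% (10.4% higher and 6.24% lower), so as a set the genes lay near the background. Single genes did not. Cdkn1a was lower in 17 of 31 ratios, 15 of them with an interval below 1, and higher in 1. Cdkn2c was higher in 13 of 34, 11 with an interval above 1, and lower in none, and the day 0 library was lowest in 7 of 9 classes, which 5.74% of genes reached or passed.

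For Cdkn2c the increases lay in progenitors, cycling neutrophil precursors, late neutrophil-like cells, plasmacytoid dendritic cells and T cells. GMP-like cells had 0.121 per 10000 at day 0 and 0.297, 0.247, 0.226 and 0.167 at days 3, 6, 9 and 12, with every later library above day 0. Cycling early neutrophil-like cells had 0.408 and then 0.708, 0.769, 0.568 and 0.459. Their ratios of 1.73 (1.46 to 2.06) at day 3 and 1.89 (1.59 to 2.24) at day 6 were 1.49 and 1.53 after dividing by the median ratio of all genes. T-like cells had 0.106 at day 0 and 0.191 to 0.303 later. In late neutrophil-like cells the ratios of 1.79 (0.960 to 3.47) at day 6 and 1.68 (0.911 to 3.25) at day 9 rest on 16 UMIs at day 0, and both intervals span 1. Free RNA moved alongside, with Cdkn2c at 0.291 per 10000 at day 0 and 0.338 to 0.514 later and Ccng1 at 0.165 at day 0 and 0.182 to 0.243 later, and its part in these ratios was not tested. In GMP-like, T-like and late neutrophil-like cells the Cdkn2c level lay below that of free RNA in each of the 5 libraries. Ccng1 was higher in 8 of 34 ratios and lower in 1, Cdkn1b and Mdm2 were each higher in 1 and lower in 1, and Cdkn2d was lower in 1 of 47. In the cycling and non-cycling early neutrophil-like cells the median log2 ratio of all genes was 0.17 to 0.30 at days 3, 6 and 9, and at day 3 it was -0.12 in cycling pro/pre-B-like cells. With ratios divided by these medians, 21 were higher and 30 lower.

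**Figure D4:**
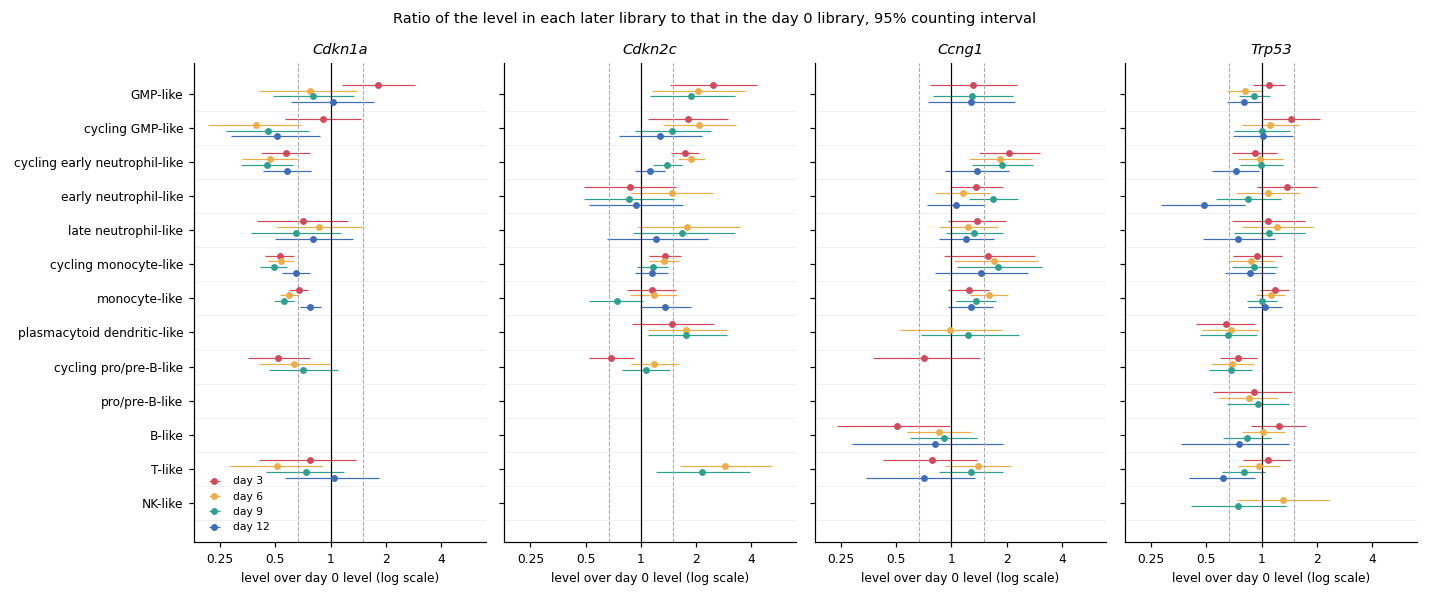
Ratio of the level at days 3, 6, 9 and 12 to that at day 0 (horizontal, log scale) by class (vertical) for Cdkn1a, Cdkn2c, Ccng1 and Trp53, 1 library per day, with 95% counting intervals as bars and 1.5-fold as dashed lines. For Cdkn1a 17 of 31 points lie left of the lower dashed line and 1 right of the upper, and for Cdkn2c 13 of 34 lie right of the upper and none left of the lower.

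Differences between classes were tested over the 5 mice, each mouse giving both classes. Between all pro/pre-B-like cells and B-like cells, 4 of the 7 genes that could be tested were higher in the precursors and none was lower, where 46.3% of 9130 genes passed the test in either direction. Cdkn2c was higher in 5 of 5 mice (0.690 ± 0.129 against 0.154 ± 0.0730 per 10000, SD; log2 difference 1.96 ± 0.20, SE; edgeR adjusted p = 4.87e-07), and so was Cdkn1a (0.318 ± 0.120 against 0.0959 ± 0.00538; 1.60 ± 0.22; adjusted p = 1.45e-05). Trp53 (0.52 ± 0.15, adjusted p = 0.00759) and Cdkn2d (0.46 ± 0.13, adjusted p = 0.00883) were higher by less, and the Cdkn2d call was lost without the day 9 mouse (adjusted p = 0.0547). For Cdkn1b (interval -0.72 to 0.04), Mdm2 (-0.41 to 0.26) and Ccng1 (-0.83 to -0.07, adjusted p = 0.0512) the adjusted p missed 0.05. Scaling to the library total in place of trimmed means (TMM) moved the median gene by 0.20 and kept the same 4 calls. Cdkn2a had too few UMIs outside day 3 to be tested in this and 3 other contrasts.

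Between cycling and non-cycling pro/pre-B-like cells, 4 of 7 genes passed, against 49.1% of 6439 genes. Beside Cdkn2c and Cdkn1b, Cdkn2d was higher in cycling cells in 4 of 5 mice (1.59 ± 0.481 against 1.07 ± 0.107 per 10000; log2 difference 0.81 ± 0.17; adjusted p = 0.000222) and so was Cdkn1a, also in 4 of 5 mice (0.82 ± 0.28, adjusted p = 0.0142). The Cdkn1a difference was lost with reads scaled to the library total (adjusted p = 0.0671), without the day 9 mouse (0.0924), without the block (0.166) and by DESeq2 (0.0706), and turned to -0.16 with finer clusters. Totals moved the median gene by -0.27 here, and with them Mdm2 (log2 difference -0.59, adjusted p = 0.0421) and Ccng1 (-0.84, adjusted p = 0.0143) were called lower in cycling cells, which TMM scaling did not call (-0.35 and -0.61). T-like and B-like cells differed in 1 of 7 genes, against 31.7% of 8872 genes. That gene was Cdkn1a, higher in T-like cells in 5 of 5 mice (0.210 ± 0.0560 against 0.0959 ± 0.00538; log2 difference 1.09 ± 0.24; adjusted p = 0.000355).

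The neutrophil contrasts depend on how libraries are scaled. TMM scaling centred the median gene near 0, while scaling to the library total moved it by 1.03 in GMP-like against neutrophil-like cells and by -1.11 in neutrophil-like against monocyte-like cells (log2). All 7 tested genes passed in the first contrast, against 79.2% of 11370 genes. With both scalings Trp53 was higher in GMP-like cells (0.900 ± 0.128 against 0.126 ± 0.0229 per 10000; log2 difference 1.79 with TMM and 2.84 with totals) and Cdkn1a was too (0.46 and 1.51), while Cdkn1b (-2.64 and -1.60), Cdkn2d (-2.59 and -1.54) and Mdm2 (-1.69 and -0.64) were lower. Cdkn2c was lower with TMM at -0.65 and higher with totals at 0.40, and Ccng1 was lower with TMM at -0.85 and not called with totals at 0.20 (adjusted p = 0.114). The Cdkn1a call was lost without the day 3 mouse (adjusted p = 0.126) and without the block (0.0758).

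Against monocyte-like cells, neutrophil-like cells had less Cdkn1a with either scaling (0.0789 ± 0.0245 against 1.17 ± 0.287 per 10000; log2 difference -2.78 with TMM and -3.90 with totals), less Trp53 (-0.99 and -2.10) and less Cdkn2c (-0.31 and -1.42), and more Cdkn2d (1.480 and 0.36). Cdkn1b was called higher with TMM at 1.07 and not with totals at -0.05, Mdm2 was called higher with TMM at 1.21 and not with totals at 0.09, and Ccng1 was not called with TMM at 0.15 and called lower with totals at -0.96. In all, 7 of 8 genes passed with TMM, against 77.9% of 11432 genes. Cdkn2a passed there with TMM (1.61, adjusted p = 0.0109) and not with totals (0.53, adjusted p = 0.366) or DESeq2 (adjusted p = 0.592), and it was higher in neutrophil-like cells in 1 of 5 mice. Its level was 0.000597 to 0.0248 per 10000 in neutrophil-like and 0.00140 to 0.00962 in monocyte-like cells, and the highest of these, at day 3, lay below the free level of 0.168. Among all genes called with TMM, the share higher in the first class was 49.2% and with totals 80.6% in GMP-like against neutrophil-like cells, 50.3% and 13.1% in neutrophil-like against monocyte-like cells, 52.1% and 67.6% in pro/pre-B-like against B-like cells, and 53.3% and 37.4% in cycling against non-cycling pro/pre-B-like cells.

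**Figure D5:**
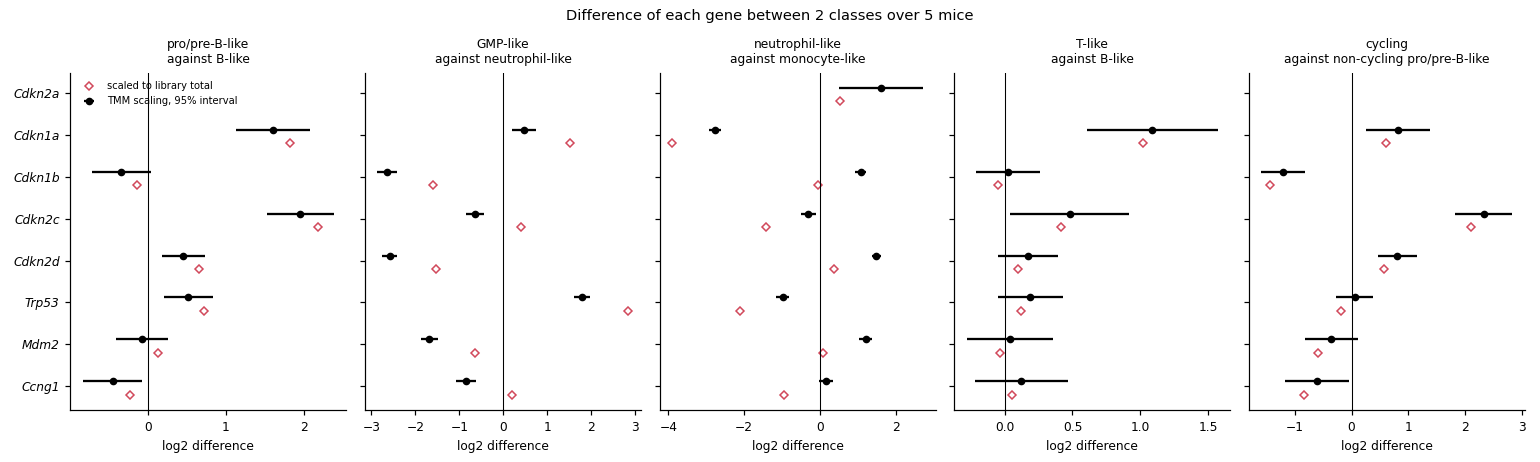
Log2 difference of each gene between 2 classes (horizontal) with the genes vertical, from UMIs summed per class and mouse (5 mice). Black points are edgeR estimates with TMM scaling and 95% intervals, and open red diamonds are the same fit scaled to library totals. In the 2 neutrophil panels Cdkn2c (-0.65 and 0.40, GMP-like against neutrophil-like), Cdkn1b (1.07 and -0.05, neutrophil-like against monocyte-like) and Ccng1 (in both) change sign between the scalings.

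The wider pathway was read from 3 lists, of 30 p53 targets, 17 regulators and 16 cyclins, CDKs and pocket proteins with E2f1 and E2f2. Of the 8 genes themselves, all pro/pre-B-like cells at day 3 had Cdkn2a above day 0 and Cdkn1a (0.520), Cdkn1b (0.321), Cdkn2d (0.573) and Ccng1 (0.525) below it past 1.5-fold, and without the cluster particular to day 3 Cdkn1a (0.494) and Cdkn1b (0.472). At day 3, all pro/pre-B-like cells had 0 of 13 tested p53 targets at least 1.5-fold above day 0 and 5 below it, with a median log2 ratio of -0.36, where the median gene was at -0.16 and 33.8% of genes passed the fold in either direction (15.7% without the cluster particular to day 3). The lowest were Btg2, an antiproliferative gene (0.227, 0.191 to 0.269), Trp53inp1 (0.307, 0.229 to 0.410) and Ddit4, an inhibitor of mTORC1 (0.398, 0.305 to 0.521). Of 15 genes of the cyclin list, 4 were higher and 2 lower: the D-type cyclin Ccnd3 was at 2.30 (2.06 to 2.57) and Ccnd2 at 0.544 (0.445 to 0.669), while Ccnd1 went from 1 to 82 UMIs. Among 14 regulators 3 were higher and 4 lower, with Skp2, which directs p27 to the proteasome, at 2.80 (1.53 to 5.59), Foxo1 at 0.519 (0.406 to 0.667) and Ppm1d at 0.451 (0.286 to 0.719). With the day 3 cluster left out, 0 of 8 p53 targets were higher and 2 lower (median log2 ratio -0.29), 4 of 13 genes of the cyclin list were higher and 1 lower, and 0 of 8 regulators were higher and 2 lower, where the median of 4907 genes was at -0.10. Btg2 was then at 0.485 (0.400 to 0.586), Trp53inp1 at 0.668 (0.485 to 0.916), Ddit4 at 0.405 (0.277 to 0.582), Ccnd3 at 1.63 (1.43 to 1.86), Ccnd2 at 0.595 (0.456 to 0.774) and Foxo1 at 0.517 (0.368 to 0.718). Skp2 (12 UMIs at day 0 and 33 at day 3) fell under the limit of 50 summed UMIs, and so did Ccnd1, which had 9 of its 82 day 3 UMIs outside the cluster. Ppm1d was at 0.875 (0.522 to 1.46).

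Of the 8 genes, later days had Cdkn1a below day 0 past 1.5-fold at days 6, 9 and 12 (0.618, 0.660 and 0.356), with Cdkn1b at day 12 (0.640). For the lists, past 1.5-fold were 2 of 12 p53 targets, 1 of 11 regulators and 3 of 14 of the cyclin list at day 6 (14.2% of all genes), which were Rb1 (2.08) and E2f1 (1.89) above day 0 and Ccnd2 below it, and 2, 1 and 5 at day 9 (15.0%). At day 12, with 50 cells, the counts were 3 of 6, 2 of 6 and 4 of 10 (23.1%). Ddit4 was below day 0 at each later day (0.402, 0.305 and 0.456 at days 6, 9 and 12), and Ccnd2 was at 0.533 and 0.595 at days 6 and 9 and at 1.77 at day 12. Of the other inhibitor genes, Cdkn1c and Cdkn2b were at or near 0 in all classes, and Cdkn3, a phosphatase of CDK2, had medians of 1.26 per 10000 in cycling monocyte-like, 1.16 in cycling early neutrophil-like and 0.933 in cycling pro/pre-B-like cells. Between classes, 13 of 14 genes of the cyclin list were higher in cycling than in non-cycling pro/pre-B-like cells and none lower. Cycling clusters were named by cell-cycle markers, Cdk1 and Ccna2 of this list among them. That count was therefore largely set by the naming and is no separate result. Of 13 p53 targets 3 were higher and 5 lower, where 49.1% of 6439 genes passed in either direction.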

How the data were processed

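Single-cell RNA was measured in the marrow of 5 mice, 1 per day. The authors aligned and counted the reads with Cell Ranger on mm10 and deposited whole-number UMI counts per gene and barcode for each library, 33425695 to 43554233 UMIs in total, with no normalization. No per-sample column was left unused (0). The 8 genes and all lists were chosen with earlier results of these data known.

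Barcodes with at least 500 UMIs were kept. Cells were clustered on all libraries together, without 80 genes (the 8 genes, their lists and sex-linked genes), with scanpy 1.11.5 and leidenalg 0.10.2 (20 components, 20 neighbours, resolution 0.6), and clusters were named where at least 3 fixed markers were enriched. Scrublet called 0 to 158 doublets a library, too few to have worked in 4 of 5, so none were removed in the main analysis and leaving out the highest 5% of scores was an alternative.

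Levels are summed UMIs of a gene per 10000 UMIs of a class with exact Poisson intervals, and ratios carry exact conditional binomial intervals (95%). A ratio was compared where each library had at least 50 cells and the gene at least 50 UMIs over both, and called past 1.5-fold in either direction. Classes were compared by edgeR 4.0.16 (quasi-likelihood test, TMM, filterByExpr, mouse as block, Benjamini-Hochberg over all genes tested, 0.05) in R 4.3.3. With the mouse as block, an adjusted p rests on how much the difference between the 2 classes varied from mouse to mouse. The 5 mice are of 5 days, so that variation joins mouse and day. The edgeR fit also draws each gene's variation toward the trend over all genes, so a p does not rest on that gene's 5 mice alone. The edgeR step was tested on data with known changes: for pro/pre-B-like against B-like cells, 50% of 198 genes changed 2-fold were recovered over 8939 genes. DESeq2 1.42.0 was an alternative, as were other UMI, mitochondrial, doublet, resolution, scaling and count settings, thinning to 1000 UMIs, no block, and leaving out each mouse.

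List genes were named by the largest 3 log2 ratios per list and day, and near genes by the highest 3 Spearman coefficients over 64 groups of a class and a day. All 8 genes matched the RefSeq promoter table (GRCm38.p6), with 11 windows. Gene positions came from GENCODE vM21.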

Additional observations from a re-analysis of the deposited data

Results flagged for a closer look

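Outside the cells, Cdkn2a stood out at day 3. Barcodes of at most 100 UMIs held it at 0.168 per 10000 at day 3 against 0 to 0.00688 on the other days, and barcodes of over 100 but under 500 UMIs at 0.173 (61 UMIs) against 0 to 3 UMIs on the other days.

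Some genes went in opposite directions in different classes at day 3, each from 1 mouse against 1 mouse, and the difference between the classes was not tested. The ratio to day 0 of Ccng1 was 2.06 in cycling early neutrophil-like cells and 0.509 in B-like cells. That of Cdkn1a was 1.81 in GMP-like cells and below 1 in cycling early neutrophil-like (0.570), cycling monocyte-like (0.529) and cycling pro/pre-B-like cells (0.519).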

How the results depend on the processing

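Each day is 1 mouse, and few cells limit the pro/pre-B-like values at day 12. No paired analysis was possible because the days share no mice, in the comparisons with day 0. The class differences were paired by mouse. Of 36 class differences tested, 23 passed the threshold, and 15 of them both passed it and kept their sign under every alternative. Without the replicate block, 1 gene in place of 2 was higher in GMP-like than in neutrophil-like cells (Cdkn1a was lost), and 2 in place of 1 were lower in cycling pro/pre-B-like cells (Ccng1 was added). Scaled to library totals, 3 genes in place of 5 were higher in neutrophil-like than in GMP-like cells, 1 in place of 4 higher in neutrophil-like than in monocyte-like cells, and 3 in place of 1 lower in cycling pro/pre-B-like cells. With that scaling the sign turned for Cdkn2c (0.40) and Ccng1 (0.20) in GMP-like against neutrophil-like cells and for Cdkn1b (-0.048) and Ccng1 (-0.96) in neutrophil-like against monocyte-like cells. At a resolution of 1.0, Cdkn1a in cycling against non-cycling pro/pre-B-like cells turned to -0.16 (adjusted p from edgeR 0.753). For B-like cells above pro/pre-B-like cells the count was 0, and it became 1 with a mitochondrial limit or the highest 5% of Scrublet scores left out (Ccng1) and 2 at resolution 1.0 (Cdkn1b and Ccng1). T-like above B-like cells went from 1 to 2 at that resolution (Cdkn2c was added).

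Leaving out 1 mouse gave 0 to 1 genes higher in B-like than in pro/pre-B-like cells (Ccng1, without day 3 or 12), 1 to 2 higher in GMP-like cells (1 without day 3), 1 to 2 higher in T-like than in B-like cells (Cdkn2c, without day 9) and 1 to 2 lower in cycling pro/pre-B-like cells (Ccng1, without day 12).

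Cdkn2a at day 3, over all pro/pre-B-like cells, was 1.63 per 10000, 0.306 without the cluster particular to that day, 0.910 as a mean over cells and 0.986 after thinning. Ratios to day 0, 25 higher and 25 lower, became 1 and 12 after thinning, where 84 could be compared, 62 and 44 with no filter on counts, 8 and 8 at 2-fold, and 39 lower (27 higher) as means over cells. List genes past 1.5-fold were 11 higher at day 3 once centred on the median ratio (7 otherwise), 5 lower at day 3 without the cluster (11 otherwise), and 3 higher at day 9 without Scrublet calls (5 otherwise). With no filter on counts they were 20 lower at day 3, 11 higher and 12 lower at day 6, 15 and 11 at day 9, and 15 and 17 at day 12. The causes were not tested.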
